A study of Homo sapiens with 9 samples.

Results

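The simple epithelial keratins examined here were KRT7, KRT8, KRT18, KRT19, KRT80 and KRT81, taken by symbol, which gave 6 genes of the 31004 in the expression table. Their transcripts were measured by RNA-seq in MDA-MB-468, a human basal-like, triple-negative breast cancer line. FAM83H-AS1, a long noncoding RNA, was silenced with lentiviral hairpins, and 9 libraries fall into 3 groups of 3: the control hairpin shNC, shFAM83H-AS1_1 and shFAM83H-AS1_2. Cells of every group were labelled wild type, received virus at an MOI of 10 and were kept under puromycin at 1 µg/mL to make stable lines. The labels leave out whether those lines were clonal. They also leave out whether replicates were separate cultures, so the p-values below measure only the spread between these libraries, which may be technical.

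Keratins build the intermediate filaments of epithelial cells as obligate pairs of a type I and a type II chain, and an unpaired chain is normally degraded. KRT8 (type II) and KRT18 (type I) are the first pair made by simple epithelia, KRT7 (type II) and KRT19 (type I) are added in ducts and glands, and luminal cells of the breast carry all of these. KRT80 is a type II keratin found in many epithelia, and KRT81 is a type II keratin of hair that is also made by some breast cancer cells. FAM83H, the protein-coding gene beside the silenced RNA, is known to bind keratin filaments together with casein kinase 1.

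Over the coding sequences of the GENCODE 29 transcripts, KRT7 and KRT8 were 76.8% identical and the type I chains KRT18 and KRT19 67.7%. In hg38, KRT7, KRT8, KRT18, KRT80 and KRT81 lie in the type II cluster on chromosome 12, where KRT18 is the type I exception, and KRT19 lies in the type I cluster on chromosome 17.

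The libraries held 15264471 to 18107130 reads on genes, and the target was checked first. FAM83H-AS1 had 16.5 ± 1.98 FPKM in shNC, 5.95 ± 1.27 with the first hairpin, shFAM83H-AS1_1, and 7.98 ± 0.551 with the second (SD, n = 3 per group, limma adjusted p = 0.00637 and 0.142), and every hairpin library lay below every control. With the second hairpin the target was called in 7 of 25 alternatives, among them a fit of shNC and that hairpin alone, paired by replicate number (limma adjusted p = 0.00503). FPKM divide the reads of a gene by the length of its annotated model and by library depth. One library stood apart: shFAM83H-AS1_1 replicate 3 correlated across genes at 0.941 and 0.950 with its replicates, against 0.979 to 0.988 between the others of a group, and it had 10665 genes at 1 FPKM or more, against 11064 to 11807. The line showed its epithelial label, with all 6 epithelial markers above 1 FPKM and sums of 569 to 1241 FPKM, although KRT8 and KRT18 are 2 of the 6 markers. The 6 leukocyte markers summed to at most 0.956 FPKM in any library, and PTPRC and CD3E did not exceed 0.0239. COL1A1 had 0.84, 2.08 and 1.73 FPKM in the 3 groups, with LUM and PDGFRB under 0.1; its part in the results was not tested. Of the endothelial markers KDR had 22.1 to 27.1 FPKM by group, while PECAM1, VWF and CDH5 stayed under 1.

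KRT19 was the most abundant member in every library. In shNC it had 864 ± 136 FPKM (SD, n = 3), rank 28 of all genes, and KRT8 had 219 ± 45.1 (rank 156). KRT81 followed with 162 ± 27.5 (rank 223), KRT7 with 154 ± 8.51 (rank 234), KRT18 with 75.3 ± 7.56 (rank 572) and KRT80 with 18.3 ± 1.98 (rank 2619). In the control libraries the ranges of KRT8 and KRT81 overlapped, and so did those of KRT81 and KRT7, while the other neighbours in this order were apart. KRT19 came before KRT8 and KRT80 came last in all 9 libraries, and the full order from KRT19 through KRT8, KRT7, KRT81 and KRT18 to KRT80 held in 5 of them. The scale bears on this order, because the gene model lengths in the FPKM exceeded those of the principal transcripts for every member but KRT81. These lengths were recovered from the FPKM, and whether they join all annotated exons was not tested. The model of KRT8 came to 6881 bases against 2126 in its principal transcript, while for KRT81 both were 1929. With the length of the principal transcript in place of the gene model, and depth scaled as in FPKM, KRT8 had 709.6 ± 146 in shNC, KRT7 350.5 ± 19.4, KRT81 162 ± 27.5 and KRT18 148 ± 14.8 (SD, n = 3). On this scale KRT81 came after KRT7 in every library, and after KRT18 too in shNC replicate 3 and every hairpin library.

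**Figure D1:**
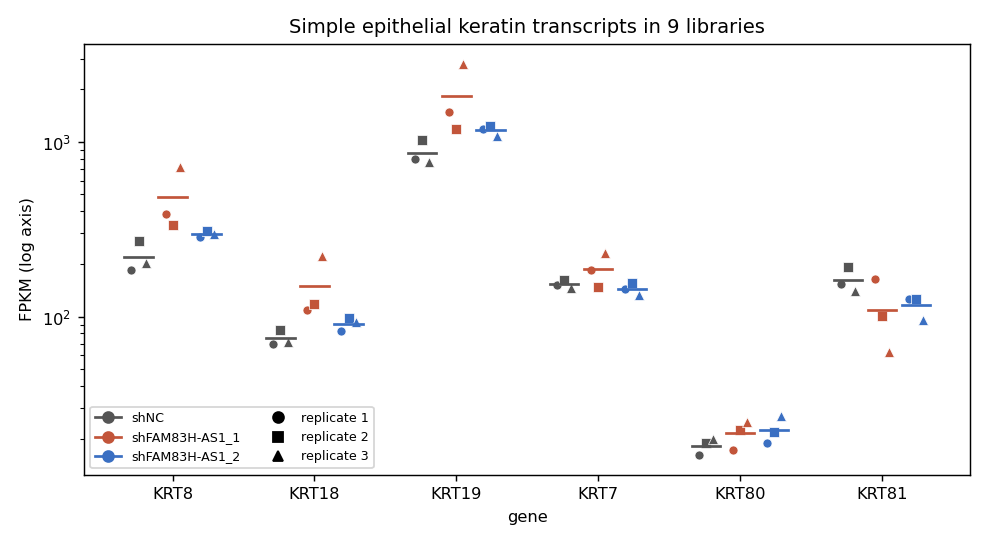
FPKM (log axis) of the 6 keratins in the 9 libraries, coloured by hairpin, with a bar at each group mean and a symbol for each replicate. The shFAM83H-AS1_1 libraries of KRT8, KRT18 and KRT19 lie above all controls, with replicate 3 highest (721, 222 and 2810.1 FPKM), and KRT81 reaches its lowest value, 62.6 FPKM, in that same library.

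With shFAM83H-AS1_1, transcripts of KRT8, KRT18 and KRT19 averaged about 2-fold above control and those of KRT81 lay below it on average, while KRT7 and KRT80 differed less. None of the 6 passed the test over all genes. In bulk RNA, a change in the number of cells that make a transcript and a change in its amount per cell cannot be told apart. The count of 0 of 6 at adjusted p under 0.05 stands beside a background of 1.57% of the 11875 tested genes (limma). At an unadjusted p under 0.05, 4 of 6 passed, 3 higher and 1 lower, where 25.3% of all tested genes did, 12.4% higher and 13% lower. The median log2 change of the members was 0.59, against -0.08 over all tested genes.

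KRT8, the type II chain that all simple epithelia make, had 184, 269.9 and 204 FPKM in shNC replicates 1 to 3 and 388, 333 and 721 in those of shFAM83H-AS1_1. The groups did not overlap, and replicate 3 was the highest of the 9 libraries. The log2 change was 1.06 (SE 0.26, 95% interval 0.49 to 1.64), at a limma adjusted p of 0.0663. KRT18, its type I partner, had 70.1, 83.9 and 71.8 FPKM in shNC and 109.7, 118 and 222 with shFAM83H-AS1_1. It too was higher in 3 of 3 libraries than in any control, with a log2 change of 0.91 (SE 0.23, 95% interval 0.40 to 1.43, limma adjusted p = 0.0739). KRT19, the type I chain of ducts that lacks most of the tail domain, had 800.5, 1020.1 and 770.2 FPKM in shNC and 1474, 1178 and 2810.1 with shFAM83H-AS1_1. Its groups were apart as well, and its log2 change was 0.98 (SE 0.27, 95% interval 0.38 to 1.59, limma adjusted p = 0.0862). Groups that do not overlap were common in this comparison, at 29.7% of tested genes, with 14.4% higher in all 3 hairpin libraries.

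The size of these differences rested in part on replicate 3. Without it the log2 changes were 0.73 for KRT8, 0.59 for KRT18 and 0.62 for KRT19, with limma adjusted p of 0.049, 0.0466 and 0.0654, where 1.76% of tested genes were called. Without shFAM83H-AS1_1 replicate 2 all 3 passed, with log2 changes of 1.29, 1.05 and 1.25 and adjusted p of 0.0317, 0.0411 and 0.0318, where 8.49% of tested genes were called. Without any 1 control library none of them passed, at adjusted p of 0.115 to 0.263. GC content moved with the libraries too. The Spearman correlation across genes between GC content and the log2 difference from the control mean was 0.44, -0.06 and 0.53 in shFAM83H-AS1_1 replicates 1 to 3, and it ran from -0.46 to 0.66 over the 9 libraries. The members' longest transcripts hold 55.7% to 62.9% GC, against a median of 48.8% in tested genes. With the GC trend of each library removed, the changes were 0.99 for KRT8, 0.84 for KRT18 and 0.84 for KRT19, with adjusted p of 0.0474, 0.058 and 0.0665 beside 5.04% of tested genes called. KRT8 was the one member called there.

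KRT81, the hair-type keratin, had 153, 192 and 139 FPKM in shNC and 164, 101 and 62.6 with shFAM83H-AS1_1. Replicate 1 lay among the controls and the other two below all of them. The log2 change of -0.66 (SE 0.29, 95% interval -1.31 to -0.01) had a limma adjusted p of 0.194, and it shrank to -0.32 (adjusted p = 0.48) without replicate 3. KRT7, the type II chain of ducts, had 152, 163 and 146 FPKM in shNC and 185, 147 and 230.3 with shFAM83H-AS1_1, with overlapping groups and a difference of 0.26 on the log2 scale (SE 0.16, limma adjusted p = 0.307). KRT80 had 16.1, 18.8 and 19.9 FPKM in shNC and 17.2, 22.3 and 24.8 with shFAM83H-AS1_1, also overlapping, and a difference of 0.21 on the log2 scale (SE 0.17, limma adjusted p = 0.44). For KRT7 and KRT80 the 95% intervals ran from -0.09 to 0.61 and from -0.17 to 0.59, so increases of up to about 0.6 on the log2 scale lie within them. Single libraries moved both values: KRT7 had 0.10 without shFAM83H-AS1_1 replicate 3 and 0.42 without replicate 2, and KRT80 had 0.10 without replicate 3 and 0.35 without replicate 1.

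**Figure D2:**
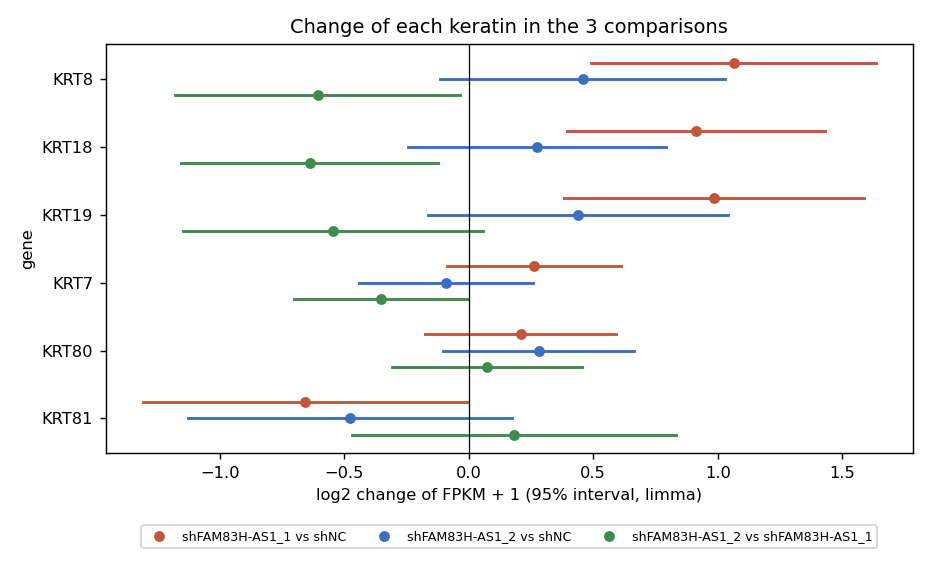
Log2 change of FPKM + 1 for each keratin (points) with its 95% interval from limma (lines) in the 3 comparisons. With shFAM83H-AS1_1 the intervals of KRT8, KRT18 and KRT19 lie above 0 and that of KRT81 ends at -0.01, while every interval with shFAM83H-AS1_2 against shNC includes 0.

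With shFAM83H-AS1_2 the same 3 keratins had smaller differences in the same direction, KRT81 was again lower on average, and no member passed the test. The background of calls here was 0.0253% of tested genes, and at an unadjusted p under 0.05 it was 6.68%, where 0 of 6 members passed (limma). The members' median log2 change was 0.28, against -0.01 over all tested genes. KRT8 had 284, 309.9 and 298 FPKM, all above the highest control at 269.9, which is 0.46 higher on the log2 scale (SE 0.26, limma adjusted p = 0.765). KRT19 had 1178, 1232 and 1081 FPKM, all above the highest control at 1020.1, with a change of 0.44 (SE 0.27, limma adjusted p = 0.779). KRT18 had 82.2, 98.3 and 93 FPKM and overlapped the controls by replicate 1 (log2 change 0.27, SE 0.23, limma adjusted p = 0.852). The 3 libraries of this group lay close together for KRT8 and KRT19, without the single high library seen with the other hairpin.

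KRT81 had 125.7, 126.6 and 95.1 FPKM with shFAM83H-AS1_2, all below the lowest control at 139, and its change on the log2 scale was -0.48 (SE 0.29, limma adjusted p = 0.776). Libraries with the same number deviated together in shNC and shFAM83H-AS1_2, a pairing taken from these same data and given by no label. In a fit of only these 2 groups with the replicate number as a block, KRT81 fell (log2 change -0.48, limma adjusted p = 0.0374), beside 617 genes called, or 5.2% of those tested. KRT8 and KRT19 reached 0.0536 and 0.0543 in that fit. Groups that do not overlap made up 22% of tested genes in this comparison, 11.1% higher and 10.9% lower, against 3 of the 6 members, KRT8 and KRT19 higher and KRT81 lower. KRT7 had 144.5, 156 and 133 FPKM and KRT80 18.8, 21.8 and 27.1. Both overlapped the controls, with log2 changes of -0.09 and 0.28 (SE 0.16 and 0.17, limma adjusted p = 0.931 and 0.776). Both hairpins were set against the same 3 control libraries, so their changes are not independent.

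Set against each other, the hairpins gave lower mean levels of KRT18, KRT8, KRT19 and KRT7 with shFAM83H-AS1_2 than with shFAM83H-AS1_1, and none of these differences passed the test. The log2 changes were -0.64 (SE 0.23) for KRT18, -0.61 (SE 0.26) for KRT8, -0.55 (SE 0.27) for KRT19 and -0.35 (SE 0.16) for KRT7, with limma adjusted p of 0.552, 0.603, 0.644 and 0.62. Without shFAM83H-AS1_1 replicate 3 they were -0.32, -0.27, -0.18 and -0.19 (limma adjusted p = 0.613, 0.859, 0.963 and 0.926). The background of calls in this comparison was 0.0926%, and 0 of 6 members were called. At an unadjusted p under 0.05, KRT18, KRT8 and KRT7 passed, 3 of 6 members all lower, where 8% of all tested genes passed and 3.66% of all tested genes passed as lower. The groups of KRT8 and KRT18 did not overlap, as for 12% of tested genes, and 5.88% of all tested genes were lower without overlap. KRT80 and KRT81 differed by 0.07 (SE 0.17) and 0.18 (SE 0.29), with adjusted p of 0.876 and 0.82, and the sign of the KRT81 difference turned to -0.16 without shFAM83H-AS1_1 replicate 3.

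The calls on single members turned on the settings, while their directions against shNC did not. In part this was fixed beforehand, because settings of the filter, the variance or the block alone leave the log2 change as it was. Over the 25 alternatives with shFAM83H-AS1_1, the log2 change of KRT8 ran from 0.68 to 1.29 and was called in 7, that of KRT18 from 0.54 to 1.1 with 6 calls, and that of KRT19 from 0.53 to 1.25 with 3 calls. KRT81 ran from -1.0 to -0.11 with 0 calls, and KRT7 and KRT80, at 0.0012 to 0.42 and 0.04 to 0.35, were called in none. With shFAM83H-AS1_2, KRT8 and KRT19 were called once each, with libraries weighted by their spread (adjusted p = 0.017 and 0.0179), where 9.42% of all tested genes were called.

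**Figure D3:**
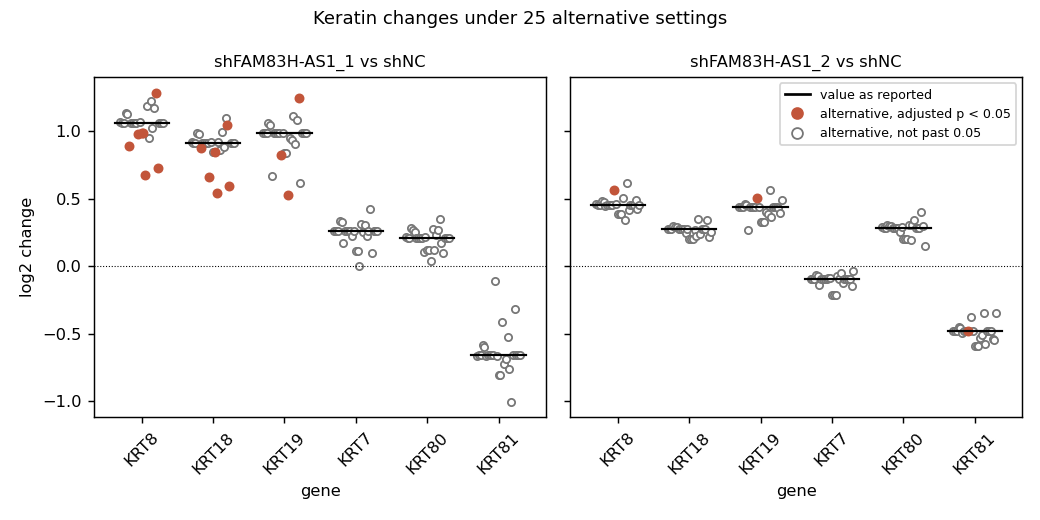
Log2 change of each keratin under the 25 alternative settings, for shFAM83H-AS1_1 (left) and shFAM83H-AS1_2 (right) against shNC. Filled points have an adjusted p under 0.05, open points do not, and the black line is the value given in the text. KRT8 with shFAM83H-AS1_1 has 7 filled points and KRT81 none.

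Ratios of FPKM depend on the gene model lengths, which were 6881 bases for KRT8, 3069 for KRT18 and 1929 for KRT81. They are read here between groups and not as amounts of one chain against another. The paired chains KRT8 and KRT18 stood in overlapping FPKM ratios in the 3 groups. The ratio of KRT8 to KRT18 in FPKM was 2.62 to 3.22 in shNC, 2.82 to 3.54 with shFAM83H-AS1_1 and 3.15 to 3.46 with shFAM83H-AS1_2. Exact two-sided permutation tests of the log2 ratio gave p = 0.3 and 0.3 against shNC and 0.9 between the hairpins, where 0.1 is the smallest p that 3 against 3 allows. The summed type I members (KRT18 and KRT19) stood to the summed type II members (KRT7, KRT8, KRT80 and KRT81) at 1.65 to 1.72 in shNC, 2.1 to 2.92 with shFAM83H-AS1_1 and 2.12 to 2.2 with shFAM83H-AS1_2, which is a description of the sums with no test. KRT19 made up most of the type I sum. The ratio of KRT81 to KRT8 was 0.685 to 0.834 in shNC, 0.0868 to 0.422 with shFAM83H-AS1_1 and 0.319 to 0.442 with shFAM83H-AS1_2. Every hairpin library lay below every control. This ratio joins the lower KRT81 and the higher KRT8 already given, so it describes the same values again, with no test. Together the members took 0.433% to 0.758% of gene reads in 8 libraries and 1.34% in shFAM83H-AS1_1 replicate 3.

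**Figure D4:**
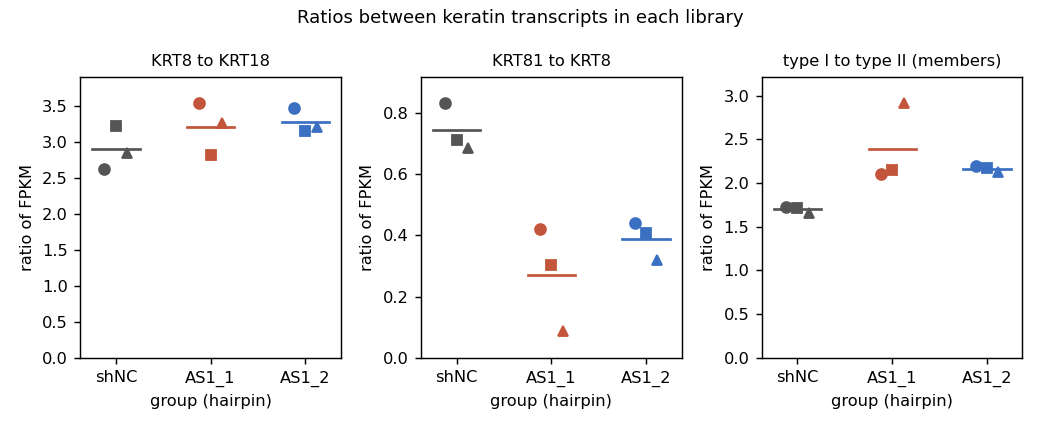
Ratios of FPKM in each library (symbols: circle, square and triangle for replicates 1, 2 and 3) with the group mean as a line, on axes that start at 0. FPKM use gene model lengths, so the ratios are not proportions of chains. KRT8 to KRT18 overlaps between groups, KRT81 to KRT8 is at most 0.442 in all hairpin libraries, and type I to type II is at 2.1 or more in all of them.

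The level of KRT81 needs a limit, since KRT81, KRT86 and KRT83 are close copies. The coding sequences of KRT81 and KRT86 are 94.2% identical with 605 identical bases in 1 run, and those of KRT81 and KRT83 are 93.3% identical. KRT81 also lies wholly within the gene span of KRT86 on the opposite strand. The stretch where KRT81 and KRT86 differ most shows what sets their reads apart; these are coding bases 1249 to 1308 of KRT81, counted from 1 at the start codon, and capitals mark bases that differ from KRT81.
KRT81: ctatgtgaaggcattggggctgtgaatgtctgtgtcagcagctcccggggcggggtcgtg
KRT86: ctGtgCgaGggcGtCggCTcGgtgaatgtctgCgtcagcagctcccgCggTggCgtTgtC
KRT83: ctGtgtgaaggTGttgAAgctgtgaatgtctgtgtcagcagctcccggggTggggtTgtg
KRT86 differed at 14 of these 60 bases and KRT83 at 7. Of all 100-base windows of the KRT81 transcript, 30.3% also occur in another gene, most of them in KRT86, so reads there cannot be told apart by sequence. KRT86 had a mean of 3.15 ± 0.227 FPKM in shNC, 2.43 ± 0.847 with the first hairpin and 2.90 ± 0.423 with the second (SD, n = 3 per group), and KRT81 exceeded it at least 35.1-fold in every library. How reads with several matches were counted, and whether strand was used, is not given in the sources used here.

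Among the other members fewer windows of that length were shared. In KRT8, 7.7% of them also occur in at least 1 of 5 other genes, most often in the pseudogene KRT8P3. KRT8 and KRT18 overlap by 1084 bases on opposite strands, and 16.6% of the 100-base windows of KRT18 lie in KRT8, so part of the KRT18 count is uncertain without strand. KRT7 shares 7.67% of such windows with its antisense gene KRT7-AS, which had a mean of 2.48 FPKM. The 18 pseudogenes of KRT8 and the 19 of KRT18 together held at most 0.642% and 0.704% as many reads as their parent genes. KRT19 and KRT80 shared no 100-base window with another gene. The read length is not given in the sources used here, and shorter windows are shared more often: at 50 bases the shares were 47.6% for KRT18, 44.6% for KRT81, 36.9% for KRT8, 10.8% for KRT7, 1.79% for KRT19 and 0.42% for KRT80.

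Of 45 keratin genes in the table, 20 passed the filter of 1 FPKM in at least 3 libraries. Of the 6 tested basal and stress keratins, 1 was called with shFAM83H-AS1_1 (background 1.57%) and 0 with shFAM83H-AS1_2 (background 0.0253%). In the paired fit of shNC and shFAM83H-AS1_2, where 5.2% of tested genes were called, 3 of these 6 rose. KRT5, the type II chain of basal cells, rose with shFAM83H-AS1_1 by 1.63 on the log2 scale (SE 0.22, limma adjusted p = 0.0158), and was called in 20 of 25 alternatives, those without shNC replicate 2 or 3 being among the exceptions. With shFAM83H-AS1_2 its log2 change was 1.29 (SE 0.22, limma adjusted p = 0.148), with all 3 libraries above every control, as for 11.1% of tested genes. It was called there in 7 of 25 alternatives, the paired fit among them (adjusted p = 0.00503), and between the hairpins it differed by -0.34 on the log2 scale (adjusted p = 0.67). KRT15, a type I chain of basal cells, and KRT6B, a type II chain of stressed epidermis, did not pass with either hairpin. Their log2 changes with shFAM83H-AS1_1 were 1.24 and -1.06 (limma adjusted p = 0.0831 and 0.119). Those with shFAM83H-AS1_2 were 0.85 and -0.15 (limma adjusted p = 0.681 and 0.948). KRT14, the usual partner of KRT5, had -0.48 with shFAM83H-AS1_1 and 0.61 with shFAM83H-AS1_2 (limma adjusted p = 0.152 and 0.539). Neither KRT15 nor KRT14 passed with shFAM83H-AS1_2 in the fit of all 9 libraries. The paired fit, whose pairing came from these same data, called both (log2 changes 0.85 and 0.61, adjusted p = 0.0299 and 0.0315). Of the 8 other tested keratins none was called in any of the 3 comparisons fitted over all 9 libraries, and their log2 changes with shFAM83H-AS1_1 ran from -0.30 to 1.61. KRT23, a type I keratin, had 0.65 and 0.83 with the hairpins (limma adjusted p = 0.123 and 0.504, and 0.0232 for the second in the paired fit), KRT10, a type I chain of upper epidermis, 0.12 and 0.13, and the hair keratin KRT38 0.05 and 0.46.

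**Figure D5:**
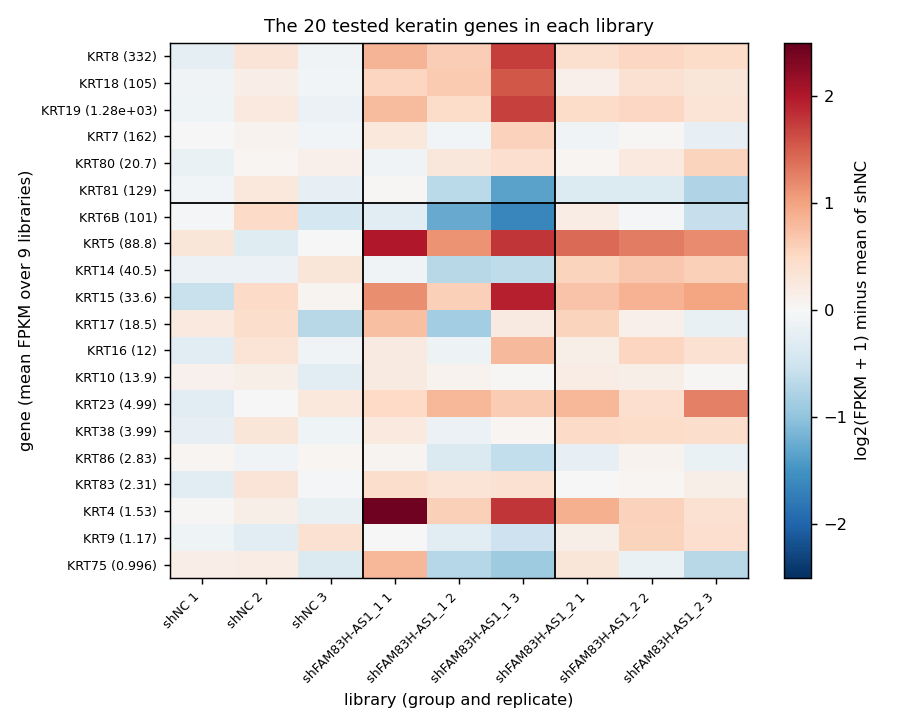
Log2(FPKM + 1) minus the shNC mean for the 20 tested keratin genes (rows, with the mean FPKM over 9 libraries in brackets) in each library (columns). The 6 simple epithelial keratins are above the horizontal line. KRT8, KRT18 and KRT19 are above the control mean in all 6 hairpin libraries, and so are KRT5, KRT15, KRT4, KRT23, KRT10 and KRT83.

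Of 29 tested partners that bind, modify or cut keratin filaments, 0 passed with either hairpin, beside 1.57% and 0.0253% of tested genes. With shares that low, 0 calls do not set such a list apart. The partners' median log2 changes were -0.08 and -0.07, against -0.08 and -0.01 over all tested genes. HSPB1, a small chaperone that binds keratins, had 390.5 ± 155 FPKM in shNC and 596 ± 143 with shFAM83H-AS1_1 (0.65 on the log2 scale, SE 0.29, limma adjusted p = 0.198). The 14-3-3 genes YWHAZ and YWHAQ had -0.48 and -0.08, and the chaperone HSPA8 had 0.02. Of the 20 tested transcription factors linked to simple keratin genes, 0 passed with either hairpin, beside the same shares of all tested genes. ELF3, an epithelial ETS factor, had 28.7 ± 3.02 FPKM in shNC and 45.3 ± 25.1 with shFAM83H-AS1_1, with 73.6 in replicate 3 alone (log2 change 0.51, limma adjusted p = 0.297). TFAP2C, JUNB and FOS had -0.18, 0.39 and 0.23.

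With shFAM83H-AS1_1 against shNC, where 1.57% of tested genes were called, 1 of 7 other intermediate filament genes was called (SYNM, lower) and 1 of 14 luminal mammary genes (SPDEF, higher). Between the hairpins, where 0.0926% were called, 1 of the 14 luminal genes was called (SPDEF, lower). SYNM encodes synemin, a filament protein that needs a partner to assemble. It had 5.70 ± 0.207 FPKM in shNC and fell to 1.70 ± 0.767 with shFAM83H-AS1_1 (SD, n = 3). The change was -1.35 on the log2 scale (SE 0.21, limma adjusted p = 0.0234). SYNM lay below every control in 3 of 3 libraries, as 15.3% of tested genes did. With shFAM83H-AS1_2 its log2 change was -0.45 and did not pass in the fit of all 9 libraries (limma adjusted p = 0.756). The paired fit, whose pairing came from these same data, called it (adjusted p = 0.048), beside 5.2% of tested genes. SPDEF, an ETS factor of luminal and secretory cells, had 3.85 ± 1.17 FPKM in shNC and rose to 10.3 ± 2.16, or by 1.23 on the log2 scale (SE 0.21, limma adjusted p = 0.028), and it was lower with shFAM83H-AS1_2 than with shFAM83H-AS1_1 (-1.45, limma adjusted p = 0.0355). Each of these calls was lost in some alternatives: SYNM was called in 19 of 25, and SPDEF in 15 and in 12 of 25. The lamin genes LMNA, LMNB1 and LMNB2 had 0.13, -0.58 and -0.74 with shFAM83H-AS1_1 against shNC, and the nestin gene NES -0.49. None of these passed the test (limma adjusted p from 0.0647 to 0.573). In that same comparison CLDN3, a tight junction gene, had 0.64, CD24 -0.44, EPCAM -0.28 and CLDN4 0.26. None of them passed the test either (limma adjusted p from 0.0668 to 0.342).

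As a description over the 9 libraries, which share 1 depth scaling and 1 outlying library, KRT8 followed KRT19 and KRT18 closely. Pearson r of log2(FPKM + 1) was 0.987 for KRT8 with KRT19 and 0.971 for KRT8 with KRT18, and 0.964 and 0.919 over the 8 libraries without shFAM83H-AS1_1 replicate 3. KRT80 and KRT81 ran opposite, at -0.79 over 9 and -0.80 over 8 libraries. KRT7 with KRT81 had -0.35 over 9 and 0.74 over 8, so its sign rested on that 1 library. The genes most like each member were picked from the tested genes, with clone-like, LINC and pseudogene symbols left out. KRT19, ALKBH7 and ATP2A3 were most like KRT8 (r from 0.985 to 0.987), and CRAT, DBP and ADORA2B most like KRT18 (0.985 to 0.988). KRT8, LMBR1L and P2RY2 were most like KRT19 (0.983 to 0.987). KRT7 was followed by ERBB2, IRX4-AS1 and BAG1 (0.968 to 0.969), KRT80 by NOG, DNM1 and SLC6A8 (0.937 to 0.978), and KRT81 by ABCC5, BEND3 and POLE (0.973 to 0.987). Over the 8 libraries the lowest of these values was 0.892, for KRT7 with BAG1. For each member these are the highest values left among the 11875 tested genes once those symbols were set aside. They carry no test.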

How the data were processed

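RNA-seq of 9 libraries was analysed from the table of FPKM values that the authors deposited. Per the submitters' processing notes the build was hg38 and the tools included HTSeq 0.6.0, Bowtie2 2.2.3 and HISAT2 2.1.0, with no roles named. The sources used here do not give annotation release, strand setting or treatment of reads with several matches. Of 31005 lines, 1 fragment of text was left out. Groups and replicate numbers came from the sample titles. Symbols came from a gene name table (30883) or GENCODE 29 (107).

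Differences were tested with limma 3.58.1 (R 4.3.3) on log2(FPKM + 1). A single fit of all 9 libraries had group as its only term, moderated variances with a trend, and 3 contrasts. Genes at 1 FPKM or more in at least 3 libraries were kept (11875, all 6 members among them). Tests were two-sided and Benjamini-Hochberg adjusted over all tested genes, with threshold 0.05. A fold change on this scale understates the change of low genes. Whole reads were recovered from the steps of the FPKM for 100% of genes within 1e-05 reads. They gave gene model lengths and 1 alternative, the count model voom, which called 83, 1 and 4 genes in the 3 contrasts. The steps were tested on simulated data. GC content came from the longest GENCODE 29 transcript (97% of genes). Coding sequences, overlaps and shared windows came from GENCODE 29 on hg38. Chi-square per degree of freedom between replicates was 13.7 or more, so no replicate was a copy of another. Depth was similar, and the members held at least 1105 reads in every library, so counting error was small beside the spread between libraries.

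Deviations from group means of same-numbered shNC and shFAM83H-AS1_2 libraries correlated at 0.196, 0.351 and 0.394, all over 0.1. These values, and no label, are why same-numbered libraries of these groups were treated as pairs. Differently numbered libraries of these groups had -0.372 to -0.003. For same-numbered shNC and shFAM83H-AS1_1 libraries the values were 0.183, -0.393 and -0.246, which is no pairing. Yet shNC replicate 3 and shFAM83H-AS1_1 replicate 2 had 0.445, and shFAM83H-AS1_1 replicate 2 and shFAM83H-AS1_2 replicate 3 had 0.441. Such a correlation therefore does not by itself show a pair. The pairing came from these same data, so calls of the paired fit are no separate support. The members, lists, tests and alternatives were chosen with earlier results of these data known. Named beside the members are, by rule, the 3 genes most like each member and, from each list, genes called in any contrast and the 4 with the highest mean. Clone-like, LINC and pseudogene symbols were left out when the most-like genes were picked. Other genes of the lists are given as counts and ranges. Promoters and proteins of the members were not used here, and some sequence is not reported here.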

Additional observations from a re-analysis of the deposited data

How the results depend on the processing

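Counts of called genes depended on the settings. With shFAM83H-AS1_1 against shNC, 187 were called, and 30 with no filter, 118 with median ratio scaling, 92 with the replicate block, 9 in a fit of the 2 groups only and 0 in that fit with the replicate block, 2361 with library weights, 83 with voom, 598 with the GC trend removed, 742 with GC trend and replicate block, 497 with the GC trend removed without shFAM83H-AS1_1 replicate 3, and 9 to 1008 leaving out 1 library. With shFAM83H-AS1_2 against shNC, 3 were called, and 14 with no filter, 1 with a filter of 5 FPKM, 1 with the replicate block, 33 in a fit of the 2 groups, 617 in that fit with the replicate block, 1119 with library weights, 1 with voom, 9 with the GC trend removed, 12 with GC trend and replicate block, 115 with the GC trend removed without shFAM83H-AS1_1 replicate 3, and 1 to 42 leaving out 1 library. Between the hairpins 11 were called, and 7 with a pseudocount of 0.1, 4 with the replicate block, 2 in a fit of the 2 groups, 0 in that fit with the replicate block, 148 with library weights, 4 with voom, 38 with the GC trend removed, 31 with GC trend and replicate block, 35 with the GC trend removed without shFAM83H-AS1_1 replicate 3, and 3 to 17 leaving out 1 library. Members called with shFAM83H-AS1_1 went from 0 to 2 with quantile normalization (2.25% of tested genes called), 3 with library weights (19.9%), 1 with the GC trend removed (5.04%), 2 with GC trend and replicate block (6.25%), 3 with the GC trend removed without shFAM83H-AS1_1 replicate 3 (4.19%), and 0 to 3 leaving out 1 library. With shFAM83H-AS1_2 they went from 0 to 1 in the fit of the 2 groups with the replicate block and 2 with library weights. Between the hairpins 0 were called in any alternative. No member changed direction against shNC, although settings of the filter, the variance or the block alone cannot move a log2 change. Between the hairpins KRT80 turned to -0.071 without shFAM83H-AS1_1 replicate 1 and to -0.061 without shFAM83H-AS1_2 replicate 3, in a range of -0.071 to 0.19 leaving out 1 library. KRT81 turned to -0.26 with library weights, -0.18 with the GC trend removed without shFAM83H-AS1_1 replicate 3 and -0.16 without that library alone, in a range of -0.16 to 0.53 leaving out 1 library and -0.26 to 0.53 over all alternatives. The log2 ratio of KRT8 to KRT18 turned to -0.053 without shFAM83H-AS1_1 replicate 2 and to -0.0047 without shFAM83H-AS1_2 replicate 1, in a range of -0.053 to 0.11 leaving out 1 library. The cause of these changes was not tested. Without 1 library the test has fewer residual degrees of freedom. Other calls for KRT5, SYNM, SPDEF and FAM83H-AS1 under the same alternatives were added after seeing the data; all kept their direction. The replicate block over all 9 libraries changed no call on a member.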
